A study of Mus musculus with 6 samples.

Results

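The apolipoprotein genes Apoa1, Apoa2, Apoa4, Apoa5, Apob, Apoc1, Apoc3, Apoe, Apoh and Apom were measured on 6 mouse arrays, 1 for the liver, 1 for the ovary and 1 for the uterus of control mice and the same for mice given BHPF (fluorene-9-bisphenol, a substitute for bisphenol A). They were 10 of the 20284 genes that could be named, and were read by 12 of the 55681 array features other than controls. The genes were chosen by their higher levels in the BHPF uterus in earlier results of these same arrays, so their uterus values stand here as a description with no test. Immature female CD-1 mice, 24 days old by the labels, were given peanut oil (control) or BHPF at 50 mg/kg body weight each day by gavage for 3 days. Each group was 1 array of 1 RNA pool from 3 mice, so no group had a replicate and no p-value was given. Whole organs were used, and in such bulk samples fewer cells of a type and less RNA per cell cannot be told apart.

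Every level below is the log2 of a feature's processed intensity minus the log2 of the 75th percentile of intensity on its array. A level of 0 is thus as bright as that percentile, and a difference of 1 is 2-fold. Levels of different features depend on the probe as well as on the RNA, so each gene was compared with itself across arrays. The 75th percentile lay between 3292 and 7500 intensity units on the 6 arrays, and from 61.3% to 74.5% of features were well above background by the scanner software's own mark. Features printed as several spots gave the only error available, an SD of 0.16 for a log2 ratio of 2 arrays read by 1 spot each. This covers the spots alone and neither mice nor pools. Genes averaged over several spots or features (Apoa1, Apoe, Apoa2 and Apob) have a smaller spot error than this. All 6 arrays shared 1 slide on which control arrays came before BHPF arrays, so slide position cannot be told apart from treatment. Of the marker lists, 20 of 20 hepatocyte genes were well above background on each liver array. So were 10 of 10 ovary genes on each ovary array and 8 of 8 uterus genes on each uterus array. Passing background does not by itself tell the tissues apart. On the BHPF uterus array 20 hepatocyte genes passed too, and on each ovary array 18 did. By summed intensity relative to the 75th percentile, the ovary list stood at 921% of its control liver value in control ovary and 65.7% in control uterus. The uterus list stood at 8703% in control uterus and 1708% in control ovary.

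The direction of every uterus value rests on the labels of the scanner files. In a second table, the authors' own normalized log2 values, the column headed control uterus held the values of the scanner file labelled BHPF uterus, and the column headed BHPF uterus held those of the control file. Of 38802 features, 99.1% matched within 0.001 log2 in this exchanged order, whereas the liver and ovary columns matched their own files. Read as headed, that table turns every uterus difference below around.

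Apolipoproteins are the proteins that give lipoprotein particles their structure and steer them between tissues. Hepatocytes and enterocytes build particles rich in triglyceride around apolipoprotein B and load them with small exchangeable proteins of the A and C families, while high-density lipoprotein forms around apolipoproteins A-I and A-II. Most of these genes are known for strong expression in liver, some of them in intestine as well. Apoe differs, since macrophages, glia, steroid-producing cells and many other cells also make it. Apoa1, Apoc3, Apoa4 and Apoa5 lie in this order on chromosome 9, and Apoc2, Apoc4, Apoc1 and Apoe lie next to each other on chromosome 7.

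Promoters of some members are shown, and their part in the uterus differences was not tested. Each sequence is the 150 bases before the transcription start in RefSeq's mouse assembly GRCm38.p6, written 5′ to 3′ along the gene. Capitals mark the letters TGTTTAC or TGTTTGC, a core bound by forkhead factors such as Foxa2, and CAAAGTCCA, CAAAGGTCA or CAAAGGTCC, forms of the repeat bound by Hnf4a, on either strand (a match on the other strand appears as its reverse complement). The first 5 were printed because they hold a match, and 1 of the 3 starts listed for Apoe, which holds none, is set beside them. Another start listed for Apoa2 holds no match. Apoa4 and Apom, which were also higher in the BHPF uterus, hold none either and are not printed.
Apoa1 (chr9:46228480-46228629, plus strand): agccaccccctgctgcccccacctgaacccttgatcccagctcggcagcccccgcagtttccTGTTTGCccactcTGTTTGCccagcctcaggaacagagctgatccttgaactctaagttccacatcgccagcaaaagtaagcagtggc
Apoa2 (chr1:171224904-171225053, plus strand): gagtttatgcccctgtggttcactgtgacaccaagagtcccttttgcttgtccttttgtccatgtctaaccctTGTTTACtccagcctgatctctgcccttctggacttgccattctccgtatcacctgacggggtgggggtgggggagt
Apoa5 (chr9:46268458-46268607, plus strand): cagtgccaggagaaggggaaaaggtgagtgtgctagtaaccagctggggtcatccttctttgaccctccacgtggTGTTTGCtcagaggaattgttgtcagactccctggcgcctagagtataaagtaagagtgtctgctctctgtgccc
Apob (chr12:7977527-7977676, plus strand): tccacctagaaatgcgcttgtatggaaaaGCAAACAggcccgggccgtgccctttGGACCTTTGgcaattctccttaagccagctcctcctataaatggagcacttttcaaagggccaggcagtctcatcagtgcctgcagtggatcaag
Apoh (chr11:108395147-108395296, plus strand): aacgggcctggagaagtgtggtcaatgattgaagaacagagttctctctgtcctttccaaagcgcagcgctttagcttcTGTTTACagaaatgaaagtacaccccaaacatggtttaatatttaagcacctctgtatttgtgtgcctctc
Apoe (chr7:19699189-19699338, minus strand): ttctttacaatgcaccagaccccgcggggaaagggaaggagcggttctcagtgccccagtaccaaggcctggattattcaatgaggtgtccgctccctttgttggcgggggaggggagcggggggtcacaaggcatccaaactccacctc

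The search covered the 250 bases before each start, in which 8 of the 10 genes had an entry with 12 starts between them. A forkhead core was found for 5 genes, Apoa1, Apoa2, Apoa5, Apob and Apoh. By window it was in 6 of the 12, and in 7.29% of 32851 windows of all genes. The 2 windows of Apoa5 overlap and hold the same core. Apoa1 held it at 2 places, with first bases 88 and 75 bases before the start. The repeat of the Hnf4a type was found in 1 of the 12 windows, that of Apob, and in 1.07% of all windows. TATAAA was found in 5 of the 12, of Apoa2, Apoa5, Apob and Apoe, and in 12.4% of all windows. Neither the forkhead core nor the Hnf4a repeat was found before the starts of Apoa4, Apoe and Apom, which says only that these letters are not in those windows. No sequence was printed for Apoc1 and Apoc3.

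In the uterus, 9 of the 10 genes were at least 2-fold higher on the BHPF array than on the control array, and none was lower. Of all 16161 genes that could be evaluated, 2.27% were past 2-fold upward and 0.823% lay past 2-fold in the other direction. The median log2 ratio of the 10 genes was 2.85, against 0.00 over all genes. Because the genes were picked for this rise, nothing is read from these counts. In the liver none of the 10 passed 2-fold in either direction, where 4.74% of 15530 genes did, and in the ovary none did either, where 1.09% of 16863 genes did. The median log2 ratio of the 10 genes was -0.00 in liver and 0.09 in ovary.

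**Figure D1:**
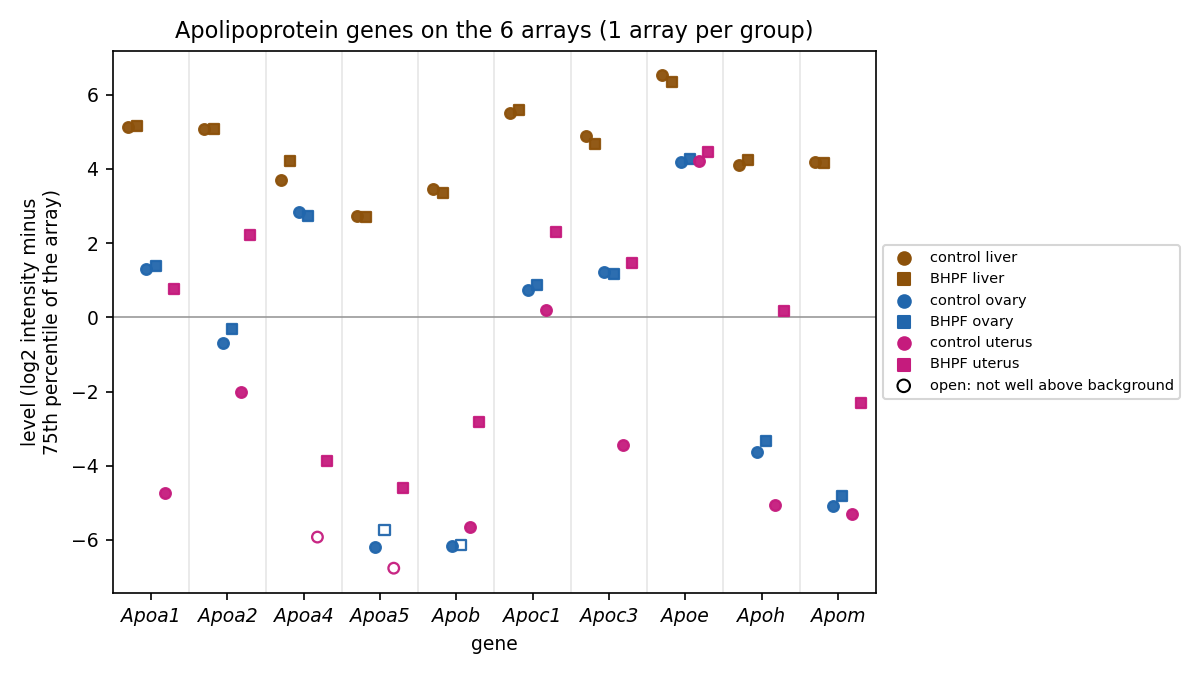
Level of each gene (log2 intensity minus the 75th percentile of the array, vertical axis) on the 6 arrays, with circles for control, squares for BHPF, one colour per tissue and open markers where no probe of the gene was well above background. Both liver arrays lie highest for all 10 genes, and the 2 uterus markers lie far apart for all but Apoe. Levels of different genes come from different probes and are not comparable.

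Apoa1 encodes the main protein of high-density lipoprotein and activates the enzyme that esterifies its cholesterol. It read 5.12 in control liver and 5.16 in BHPF liver, 1.30 and 1.39 in control and BHPF ovary, and -4.73 in control and 0.76 in BHPF uterus. The control uterus array stood lowest, and the BHPF uterus array came close to the ovary arrays. Its log2 ratio of BHPF to control was 5.49 in uterus, or 45.0-fold, against 0.04 in liver and 0.10 in ovary. The feature was printed as 10 spots, of which 9 were kept on the control uterus array. There the spots ran from -5.11 to -4.53, with an SD of 0.19, and on the BHPF uterus array they ran from 0.69 to 0.92, with an SD of 0.07, so the spots did not overlap.

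Apoa2 encodes the second most abundant protein of the same particle and was read by 2 features. Averaged over them, its level was 5.08 and 5.08 in control and BHPF liver, -0.70 and -0.31 in ovary, and -2.02 and 2.23 in uterus. The BHPF uterus lay above both ovary arrays, whereas for Apoa1 it lay below them. Separately the 2 features gave uterus log2 ratios of 4.57 and 3.94, and their mean of 4.26 was 19.1-fold. In the ovary the mean ratio was 0.39, but the features gave 0.59 and 0.19, so the probes disagreed by about as much as the difference itself.

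Apom encodes a lipocalin that sits in high-density lipoprotein and carries sphingosine 1-phosphate. Levels were 4.19 and 4.17 in control and BHPF liver, -5.09 and -4.80 in ovary, and -5.30 and -2.31 in uterus. The rise of 2.99 on the log2 scale, 7.94-fold, left the BHPF uterus far below the liver. With normexp, another background correction, the rise was 2.41. In control mice its ovary and uterus levels lay 0.20 apart, little more than the spot SD of a ratio.

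Among proteins of the triglyceride-rich particles, Apob is the large non-exchangeable scaffold of which each particle holds a single copy. One of its features read 4.74 and 4.64 in control and BHPF liver, then -6.07 in the control uterus, where it was not well above background, and -1.67 in the BHPF uterus. The other read 2.19 and 2.08 in liver, -5.26 in the control uterus and -3.97 in the BHPF uterus. Both were higher in the BHPF uterus, by a log2 ratio of at least 4.14 for the first and 1.29 for the second. On the ovary arrays 1 of the 2 features was well above background in control mice, at -6.07, and neither was in BHPF mice, so the ovary gave no usable ratio.

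A bound of this kind was set wherever a feature was not well above background. It takes the lowest level among features that were well above background on that array, -5.80 on the control uterus array and -5.07 on the BHPF uterus array, or the feature's own value if that is higher.

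Apoa4, which is made mostly in the small intestine and in rodent liver and is secreted with chylomicrons, showed a pattern of its own. Its level was 3.71 and 4.20 in control and BHPF liver, 2.83 and 2.73 in ovary, and -5.92, not well above background, and -3.86 in uterus. The ovary arrays thus stood near the liver and the uterus arrays far below both. In the uterus it was at least 3.85-fold higher with BHPF. Its liver log2 ratio of 0.50, below 2-fold, was the widest liver difference among the 10 genes.

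Apoa5 encodes a scarce plasma protein that promotes the breakdown of triglyceride by lipoprotein lipase. Levels were 2.73 and 2.72 in liver, -6.20 and -5.73 in ovary, of which the second was not well above background, and -6.76, again not well above background, and -4.60 in uterus. Both uterus arrays were at the edge of detection, and the rise was at least 2.31-fold.

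Apoc1 encodes a small protein that slows uptake of remnants, and Apoc3 one that inhibits lipoprotein lipase. Apoc1 levels were 5.50 and 5.58 in liver, 0.75 and 0.88 in ovary, and 0.19 and 2.31 in uterus. Apoc3 levels were 4.88 and 4.67 in liver, 1.21 and 1.17 in ovary, and -3.44 and 1.46 in uterus. The control uterus stood within 0.56 of the control ovary for Apoc1 and 4.65 below it for Apoc3. Uterus differences followed suit, at 4.33-fold for Apoc1 and 29.7-fold for Apoc3, while both BHPF uterus levels lay above those of the ovary.

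Apoh encodes beta-2-glycoprotein I, a phospholipid-binding plasma protein made by the liver. It read 4.10 and 4.24 in liver, -3.63 and -3.34 in ovary, and -5.07 and 0.16 in uterus. Its uterus log2 ratio of 5.23, or 37.5-fold, came second to that of Apoa1 among the 10. The control uterus level was not far above -5.80, the lowest level well above background on that array. With normexp background correction the ratio was 4.48, behind Apoc3 at 4.71. The BHPF uterus was the brightest of the 4 arrays other than liver, as it was for each of the 10 genes except Apoa1 and Apoa4.

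Apoe, the ligand by which remnant particles are taken up, was the exception. Its level was 6.52 and 6.35 in control and BHPF liver, 4.18 and 4.26 in ovary, and 4.23 and 4.47 in uterus. Control uterus and control ovary differed by 0.04, less than the spot SD of a ratio, and all 4 of these arrays stood about 2 log2 units below the liver. The uterus log2 ratio was 0.24, or 1.18-fold. Its 10 spots ran from 4.05 to 4.40 on the control uterus array and from 4.31 to 4.57 on the BHPF array, so they overlapped. Before scaling the intensities were 99955 and 100105, and the ratio follows from the 75th percentile, which was 5335 units on the control uterus array and 4530 on the BHPF array.

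**Figure D2:**
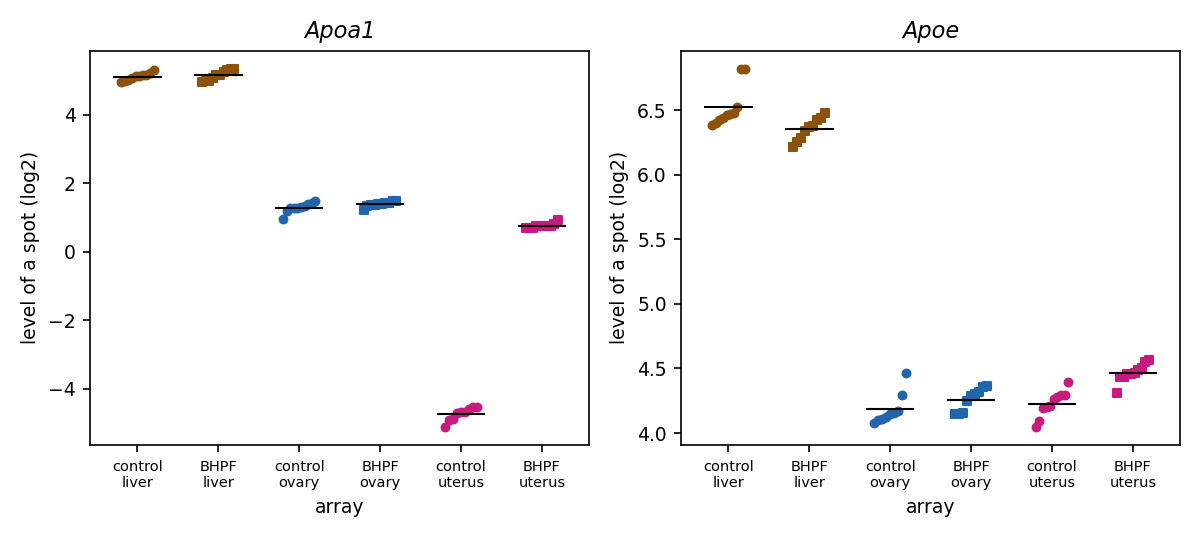
Level of each single spot (log2, vertical axis) of the Apoa1 and the Apoe feature on the 6 arrays, 9 or 10 spots each, with circles for control, squares for BHPF and a line at the mean. Apoa1 spots of the 2 uterus arrays are separated by more than 5 log2 units, whereas Apoe spots of those arrays overlap. The spread is between spots of 1 hybridisation, and the vertical axes differ.

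Macrophages are a known source of Apoe, and 12 of 13 macrophage genes were evaluated in uterus and ovary and 13 in liver. In the uterus 1 was higher, Clec4f, a gene of liver-resident Kupffer cells, with a log2 ratio of 1.21. Of the 12 ratios there, 7 lay above 0 and 5 below, with a median of 0.04. The macrophage list, summed, was 27.1% of its control liver value in the control uterus and 26.2% in the BHPF uterus. Marco, a scavenger receptor of macrophages, and Adgre1, the F4/80 antigen, were lower on both the liver array, at log2 ratios of -1.85 and -1.08, and the ovary array, at -2.71 and -1.20. In the uterus Marco had a log2 ratio of -0.38, Adgre1 of 0.08 and Timd4, another gene of the list, of -0.22. The list's sum in BHPF liver was 79.8% of that in control liver, and in ovary it went from 27.2% to 17.5%. The log2 ratio of Apoe was -0.17 in liver and 0.08 in ovary. The part of macrophages in the Apoe levels was not tested. Cd163, another such receptor, was 1.27 higher in BHPF liver, from a level of -5.35.

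The differences in liver were small for all 10 genes. Of their log2 ratios, 7 lay within the spot SD of 0.16, and the other 3 were Apoa4 at 0.50, Apoc3 at -0.21 and Apoe at -0.17. For Apoa1, Apoa2, Apoa5, Apoc1, Apoc3 and Apoh the sign of the liver ratio turned under at least 1 other way of scaling or averaging. With the median of each array in place of its 75th percentile, the median liver ratio of the 10 genes became -0.32 and that of all genes -0.30, so relative to all genes the apolipoprotein genes barely moved.

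In the ovary 8 of the 10 genes were well above background on both arrays. Apoa2 at 0.39, Apoh at 0.29 and Apom at 0.29 lay outside the spot SD, each below 2-fold and each higher with BHPF. The remaining 5 lay between -0.10 for Apoa4 and 0.13 for Apoc1, and of these the sign turned under another setting for Apoc1, Apoc3 and Apoe.

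Levels in control ovary were not a fixed part of those in liver. Within each gene, the control ovary intensity relative to its array's 75th percentile was 54.6% of the control liver value for Apoa4, 19.8% for Apoe, 7.86% for Apoc3, 7.07% for Apoa1, 3.70% for Apoc1 and 1.82% for Apoa2. It was 0.470% for Apoh and between 0.128% and 0.205% for Apob, Apom and Apoa5. The 20 hepatocyte markers summed to 0.940% in control ovary and 1.15% in BHPF ovary. Apoa4, Apoc3 and Apoa1, neighbours on chromosome 9, were thus relatively bright in ovary, while Apoa5, which lies beside them, was not.

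Genes of intestine and pancreas were read beside the ovary values of Apoa4. Of 11 enterocyte genes, 6 were well above background in control ovary and 5 in BHPF ovary. Krt20, a keratin, read 0.90 and 0.78 there, Vil1, an actin-binding protein of microvilli, -0.81 and -0.51, Fabp2 -4.57 and -4.62 and Cdh17, an intestinal cadherin, -4.88 and -4.92. Sis, sucrase-isomaltase, at -4.54, and Rbp2, a retinol carrier, at -6.03, passed background only in the control ovary. Lct, lactase, had no usable spot in control ovary and read -3.44 in BHPF ovary, and Alpi, Cdx1, Cdx2 and Slc5a1 passed on neither array. Of 7 pancreas genes, 6 were well above background on both ovary arrays. Cpa1, a digestive carboxypeptidase, read 1.14 and 1.20 there against -4.98 in control liver. Pnlip and Ctrb1, which did not pass background in control liver, read -3.89 and -3.11 in control ovary. The others went the other way. Control liver and control ovary read 0.25 and -1.45 for Cela1, -2.12 and -3.22 for Cela2a, and -2.68 and -3.18 for Ins2. The part of these tissues in the ovary level of Apoa4 was not tested.

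Set against the liver, the rise in the BHPF uterus was of unequal size. For each gene the increase in scaled intensity from control to BHPF uterus was divided by the control liver value of the same feature. This share was 13.2% for Apoa2, 8.99% for Apoc3, 8.38% for Apoc1, 6.33% for Apoh, 4.77% for Apoa1 and 3.66% for Apoe. It was 1.11% for Apob, 0.969% for Apom, 0.484% for Apoa5 and 0.402% for Apoa4. Genes of both particle classes stood at either end, and the highest share was 32.8 times the lowest. That lowest share, of Apoa4, has a control uterus value not well above background. Among the 7 genes that passed background in both uteri with every feature, the highest was 13.6 times the lowest. With the BHPF liver as the denominator, the factor over all 10 was 46.3. The 2 features of Apoa2 gave 14.3% and 12.1% and those of Apob 1.12% and 0.831%, so features of a gene lay much closer together than the genes did. The sizes of the shares depend on the scaling, and over the alternatives they ran from 8.38% to 21.7% for Apoa2, from 5.72% to 13.9% for Apoc3, from 5.25% to 14.8% for Apoc1 and from 1.63% to 4.91% for Apoe. After quantile normalization Apoc1 stood above Apoc3. Apoa2 was the highest of the genes evaluated under each alternative that followed the scanner files' labels or exchanged the table's uterus columns. For Apoe the share comes from the difference of 0.24 described above, on a control uterus that already held 20.4% of the liver value.

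**Figure D3:**
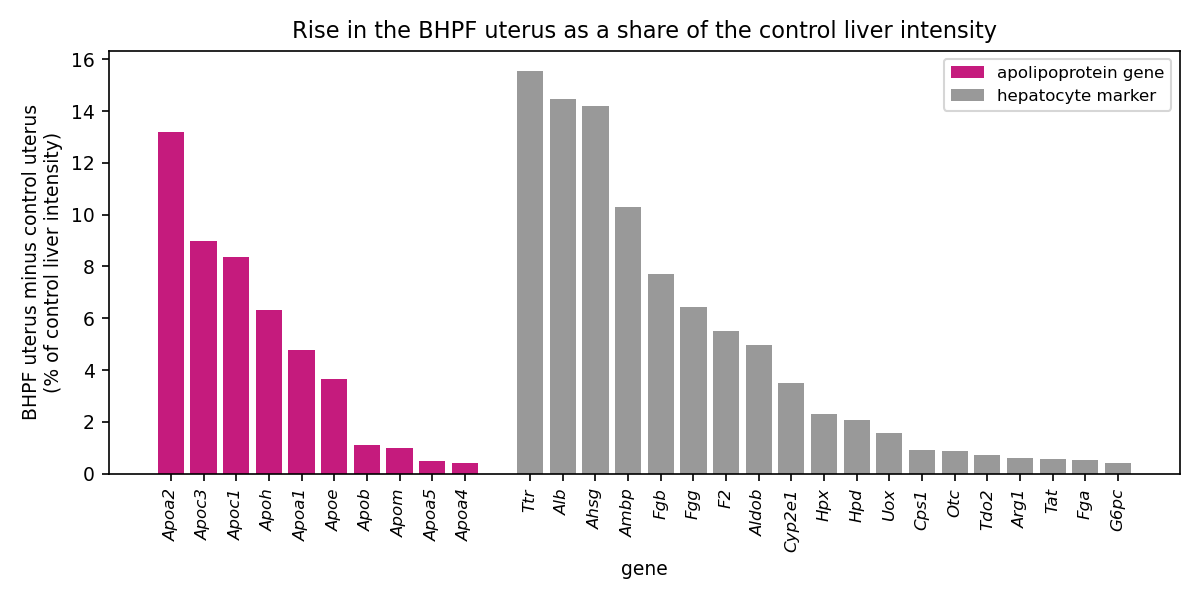
Scaled intensity of the BHPF uterus minus that of the control uterus, as a percentage of the control liver intensity of the same gene (vertical axis, from 0), for the 10 apolipoprotein genes and 19 of the hepatocyte markers, each sorted. The apolipoprotein genes run from 0.402% (Apoa4) to 13.2% (Apoa2) and the hepatocyte markers from 0.406% (G6pc) to 15.6% (Ttr).

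Apart from Apoe, the genes with the highest control uterus levels relative to liver were also those with the highest shares, in another order. The control uterus held 2.52% of the liver value for Apoc1, 0.727% for Apoa2 and 0.313% for Apoc3. It held between 0.108% and 0.179% for Apoa1, Apoa4, Apoa5, Apob, Apoh and Apom. Those of Apoa4 and Apoa5 were not well above background, nor was the feature of Apob that was brighter in liver. Fold changes and shares therefore ranked the genes differently, with Apoa1 the first by fold and the fifth by share, and Apoc1 low by fold and the third by share.

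Markers of hepatocytes moved with the apolipoprotein genes. Of 20 such genes 18 were at least 2-fold higher in the BHPF uterus, 6 of them by a bound, and none was lower, with a median log2 ratio of 3.62. In the BHPF uterus all 20 stood well above background, against 14 in the control uterus, where Fga, Tdo2, Hpd, Cps1 and Otc were among those that did not. Summed over the list, scaled intensity was 0.545% of the control liver sum in the control uterus and 6.82% in the BHPF uterus. Alb, serum albumin, read -0.92 and 3.36 on the 2 uterus arrays, and Ttr, transthyretin, -1.33 and 2.46. By share of the liver value the list had a median of 2.44%, against 4.21% for the 10 apolipoprotein genes, and 9 of the 10 lay inside the range of the markers. Like the apolipoprotein genes, the markers had unequal shares, with Ttr, Alb and Ahsg above 14% and 7 of the 20 below 1%. In the ovary no marker passed 2-fold, and the median share was 0.0431% for the markers and 0.0925% for the apolipoprotein genes. The part of hepatocyte RNA in the uterus result was not tested.

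**Figure D4:**
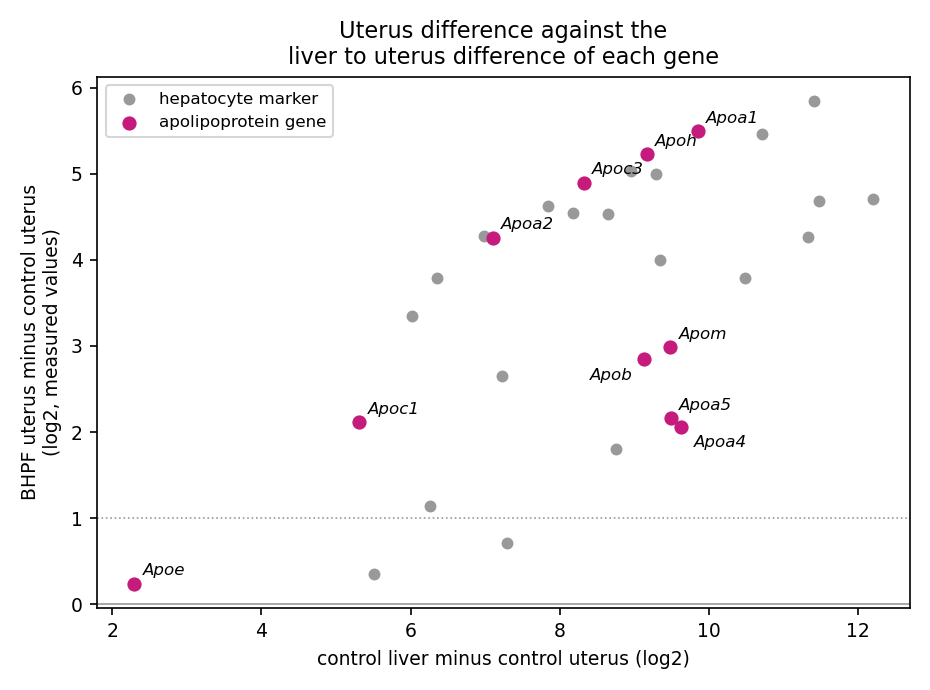
Log2 difference between BHPF and control uterus (vertical axis) against the log2 difference between control liver and control uterus (horizontal axis) for the 10 apolipoprotein genes and 20 hepatocyte markers (grey). Values are used without bounds, and some control uterus values were not well above background. Apoa1, Apoh, Apoc3 and Apoa2 lie along the upper edge, and Apoe lies at the lower left. Apob, Apom, Apoa5 and Apoa4 lie lower, at a liver to uterus difference similar to that of Apoa1 and Apoh.

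Across the 10 genes, the uterus ratio and the log2 difference between control liver and control uterus had a Pearson r of 0.59 and a Spearman rho of 0.35. Without Apoe these were 0.18 and 0.10 over 9 genes, and over the 20 hepatocyte markers 0.64 and 0.69. Values were used without bounds, and some of the control uterus were not well above background. Both axes contain the control uterus array, and genes are not independent replicates, so these correlations describe the plot and nothing more.

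Fewer markers of other cells passed 2-fold in the uterus. Of 11 enterocyte genes 5 could be evaluated in the uterus, where Fabp2, the intestinal fatty acid carrier, was 1.71 higher on the log2 scale and Slc5a1, a glucose transporter, was lower with a log2 ratio of -1.08 set by a bound. Fabp2 also read 3.88 in control liver. Among adipocyte genes 3 of the 6 evaluated were lower in the BHPF uterus, with log2 ratios of -3.31 for Adipoq, -2.71 for Cfd and -1.46 for Fabp4, and none was higher. The part of fat around the uterus was not tested.

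The wider lipoprotein system was read from lists of other apolipoproteins, assembly proteins, plasma enzymes and inhibitors, receptors and transcription factors. None of their genes passed 2-fold in liver or ovary. In the uterus 3 of 13 evaluated other apolipoproteins were higher and none was lower. They were Apof, an inhibitor of lipid transfer, with a log2 ratio of 3.76, Apon, at least 2.93, and Apoc4, which lies next to Apoc1, at 2.15. Clu, an apolipoprotein that many tissues make, read 2.91 and 2.97 in control and BHPF uterus. Over these 13 genes the median was 0.15.

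None of the 9 assembly genes evaluated passed 2-fold in the uterus, and their log2 ratios lay between -0.20 and 0.06. The control uterus already held 4.47% of the liver value for Mttp, 24.7% for Sar1b and 34.1% for Dgat2. For each of the 9 this part was larger than for any apolipoprotein gene other than Apoe. A fold change therefore does not set the 2 lists side by side on equal terms. Mttp, the transfer protein that loads lipid onto apolipoprotein B, read -1.51 in the control and -1.45 in the BHPF uterus, and 2.98 in control liver. Dgat2, which makes triglyceride, read 2.60 and 2.53 in the uterus, and Sar1b, which moves the particles out of the endoplasmic reticulum, 2.30 and 2.21.

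Among 13 plasma enzymes, transfer proteins and inhibitors 4 were higher in the uterus and none was lower. Pon1, an esterase carried on high-density lipoprotein, was higher by a log2 ratio of at least 5.12, Lipc, hepatic lipase, by at least 1.92, and Angptl8, an inhibitor of lipoprotein lipase, by 1.33. Lpl, lipoprotein lipase itself, read 1.02 in the control and 0.37 in the BHPF uterus. All 4 that were higher had levels between 3.38 and 4.82 in control liver. Other genes of the list lay in that range without passing 2-fold. Among them were Angptl4 at 3.83 and Pltp at 3.62, with uterus log2 ratios of -0.26 and 0.07.

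Of 13 receptors and sterol exporters evaluated 1 was higher in the uterus, Abcg5, which pumps sterols into bile, with a log2 ratio of 1.04, and none was lower. Lrp1, a remnant receptor, read 3.04 and 3.06 in control and BHPF uterus.

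Of 14 transcription factors known to act on these genes 2 were higher in the uterus, both by a bound and neither of them well above background there in control mice. Hnf4a, a nuclear receptor of hepatocytes and enterocytes, was higher by a log2 ratio of at least 2.90 and Foxa3, a forkhead factor, by at least 1.18. Foxa2 read -1.54 and -0.94 in the uterus, below 2-fold, and Nr1h3, the liver X receptor alpha, 1.33 and 1.67. The median over the 14 was 0.39.

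**Figure D5:**
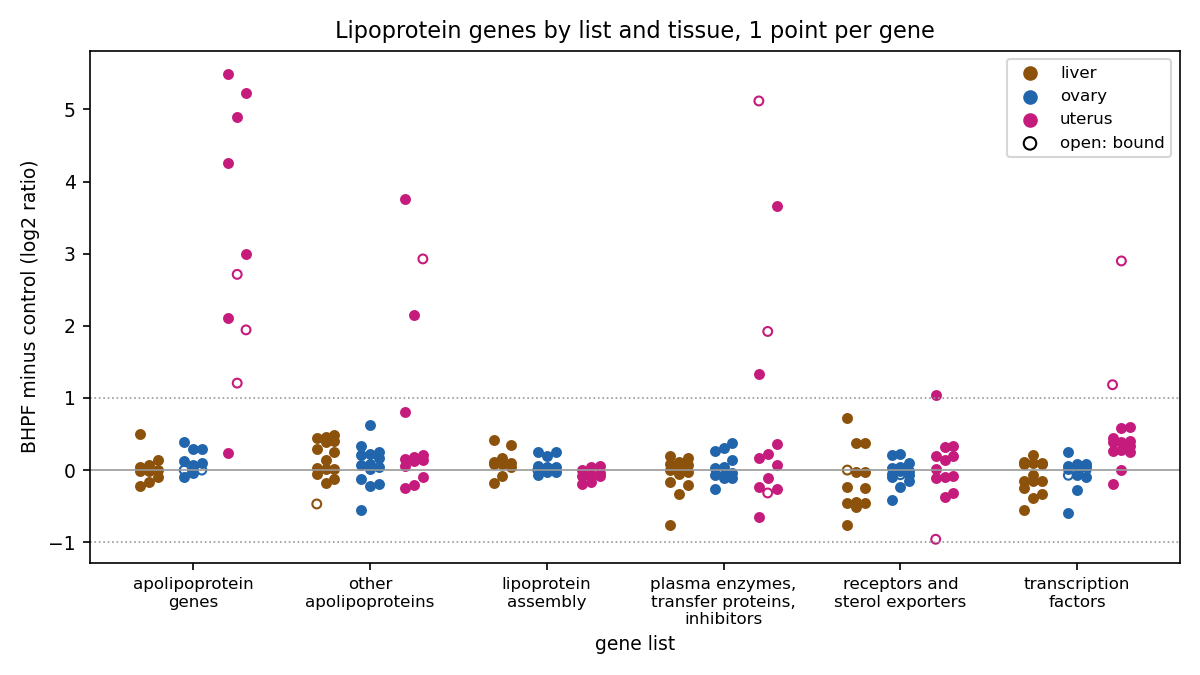
Log2 ratio of BHPF to control (vertical axis) for each evaluated gene of 6 lists (horizontal axis), coloured by tissue, with open points for bounds and dotted lines at 2-fold. In liver and ovary all points lie between the dotted lines, and in uterus most points of lists other than the apolipoprotein genes do, including all 9 assembly genes. Those 9 had higher control uterus levels relative to liver than the apolipoprotein genes other than Apoe.

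Patterns over the 6 arrays were compared by the root mean square difference of levels after each gene was centred on its own mean. The mean pattern of the 9 genes other than Apoe was closest to Rgn, a calcium-binding liver protein, at 0.30, Hc, complement component C5, at 0.31, Proc, the precursor of activated protein C, at 0.46, Apof at 0.46 and Itih3, a plasma protein that binds hyaluronan, at 0.52, among 13972 genes. Their shares of the liver value in the uterus lay between 2.08% and 3.79%. The uterus levels were part of the filter and of the match, so nothing further is read from these shares. Apoe was closest to Slc35e2 at 0.048, Alad, an enzyme of haem synthesis, at 0.052, Glud1, glutamate dehydrogenase, at 0.068, Atp13a3 at 0.087 and Pgap6 at 0.091, among 13711 genes. Those 5 had uterus log2 ratios from -0.03 to 0.12, so none was as far above 0 as Apoe. Among all 16161 genes evaluated in the uterus, Apoe ranked 2510 from the highest ratio.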

How the data were processed

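Total RNA was pooled from 3 mice per group, labelled with Cy3 and hybridised to 1-colour Agilent SurePrint G3 arrays, 1 array per group. The deposited scanner files hold intensity, which the authors obtained with Agilent Feature Extraction (version 9.1 by the submitters' processing notes, 11.5.1.1 in the file headers), background-subtracted and not scaled between arrays. The deposited table of log2 values was made by the authors by percentile shift in GeneSpring and served as an alternative, and its fold changes were not used. All value columns could be tied to a sample.

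Spots marked as outliers were left out, spots of a feature averaged, and log2 intensity reduced by the 75th percentile of the array. Features of a gene were averaged. Transcripts were named through RefSeq's table for GRCm38.p6, which matched 48.1% of features. A gene was evaluated in a tissue when well above background on at least 1 array, a dim value was replaced by a bound, and a gene was called at 2-fold, the threshold by which the study counted changed genes. The calculation was tested on simulated data. Some list genes are counted but not reported here by name. With 1 array per group there was no test, and it is this number of arrays that sets the precision. The members and gene lists were chosen with earlier results of these data known. Named were all 10 members, list genes past 2-fold (at most 5 per list and tissue) and up to 3 of the brightest genes of a list. Also named were the 5 genes nearest in pattern to the mean of the 9 members other than Apoe and to Apoe. Mttp, Lcat, Foxa2 and some hepatocyte, enterocyte, macrophage and pancreas markers were named outside this rule, after their values were seen. Alternatives were 50th percentile, quantile and normexp (limma 3.58.1, R 4.3.3) scaling, the authors' table, other handling of dim and repeated features and a 4-fold threshold. Other steps used Python 3.11.15, numpy 2.4.6 and pandas 2.3.3.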

Additional observations from a re-analysis of the deposited data

How the results depend on the processing

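The 9 genes that were higher in the BHPF uterus stayed higher under each alternative that gave them a value and followed the scanner files' labels. Their log2 ratios there ranged from 4.78 to 5.71 for Apoa1, 3.94 to 4.63 for Apoa2, 1.92 to 4.14 for Apob and 1.07 to 2.16 for Apoa5, and for Apoe from 0.15 to 0.25. For Apoh they ranged from 4.48 to 5.36 and for Apom from 2.41 to 3.00. With a 4-fold threshold 7 genes were higher in the uterus. The median uterus log2 ratio of the 10 genes, 2.85 as reported, was 2.22 after normexp background correction, 4.26 over genes well above background on both arrays and 3.46 with the brightest probe of each gene. The median share of the liver value without Apoe, 4.77%, was 3.03% with 50th percentile scaling, 6.16% with a 75th percentile taken only over probes that passed background on every array, 7.06% after quantile normalization and 7.36% over genes well above background on both arrays, so the size of these shares depends on how liver and uterus arrays are scaled to each other. With 50th percentile scaling the median liver log2 ratio was -0.32, beside -0.30 over all genes. In liver the sign turned under at least 1 alternative for Apoa1, Apoa2, Apoa5, Apoc1, Apoc3 and Apoh, and in ovary for Apoc1, Apoc3 and Apoe.

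In the authors' table with the uterus columns as headed, 0 genes were higher and 9 lower in the uterus, with a median log2 ratio of -2.92. The ratios were then -5.49 for Apoa1, -4.26 for Apoa2, -2.06 for Apoa4, -2.16 for Apoa5, -2.84 for Apob, -2.11 for Apoc1, -4.89 for Apoc3, -5.23 for Apoh and -2.99 for Apom. The shares of the liver value were -4.77% for Apoa1, also their median, -13.2% for Apoa2, -0.402% for Apoa4, -0.485% for Apoa5, -1.11% for Apob, -8.39% for Apoc1, -9.00% for Apoc3, -6.34% for Apoh and -0.970% for Apom. With the columns exchanged, a setting added after seeing the data, all 9 were higher again. No paired analysis was possible because each group was 1 array with no test.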

Other observations

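The adipocyte list moved differently in the 3 tissues. In the ovary Cfd, the complement protease adipsin, was 2.05 higher with BHPF on the log2 scale and Adipoq, the hormone adiponectin, 1.35 higher, whereas both were lower in the uterus, and Cfd was lower in the liver with a log2 ratio of -1.63. Summed, the list stood at 26.8% of its control liver value in control ovary and 33.4% in BHPF ovary, and at 30.6% and 10.8% in the uterus. Of 7 pancreas genes 2 were evaluated in the uterus, and Cela1, an elastase, was lower with a log2 ratio of -1.46. In the liver Vil1, an actin-binding protein of microvilli, was 1.60 higher with BHPF, from a level of -3.38 to -1.78. These values come from 1 array per group and were not run under the alternatives.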
